A study of Homo sapiens with 17 samples.

Results

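Osteopontin and 6 other secreted ligands of alpha-v integrins are described here by the new RNA that SNU-761 cells made for them. The 7 genes are SPP1 (osteopontin, ENSG00000118785), THBS1 (thrombospondin-1, ENSG00000137801), FN1 (fibronectin, ENSG00000115414), VTN (vitronectin, ENSG00000109072), EDIL3 (ENSG00000164176), TNC (tenascin-C, ENSG00000041982) and FBN1 (fibrillin-1, ENSG00000166147). They are 7 of the 19867 Ensembl gene IDs in the deposited table. They were picked by ID as known ligands, with the higher SPP1 and lower THBS1 values under VT107 already seen. The comparison of VT107 with DMSO is therefore given as a description with no test, while the comparisons with the antibody and between doses are tested.

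Alpha-v integrins are cell-surface receptors made of the ITGAV chain and a beta chain. Many of their ligands carry the tripeptide arginine-glycine-aspartate, through which the receptor holds the cell to the matrix and signals to the actin cytoskeleton. Tension on these contacts is one input to YAP and TAZ, the coactivators that bind DNA through the TEAD transcription factors, and THBS1 is a known target of YAP and TEAD in several cell types. In the liver, hepatocytes secrete much of the vitronectin and fibronectin of plasma, and osteopontin is known from bile duct cells and liver tumours.

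SNU-761 is an established human liver carcinoma cell line, of wild-type genotype per the labels, and every group was grown from this single line. Cells were exposed for 4 h to VT107, a small-molecule pan-TEAD inhibitor, at 0.1 or 2.15 µM or to DMSO (2 libraries per group), or to an intetumumab biosimilar, an antibody against alpha-v integrins, at 1.5 or 5 µg/ml or to an isotype IgG1 at 5 µg/ml (3 libraries per group). New RNA was read by SLAM-seq, in which thiouridine taken up by the cells is alkylated and read as C in place of T, so that reads with T>C conversions count as RNA made in the presence of the label, for a time not given in the sources used here. The table held 15 such labelled libraries and 2 libraries without thiouridine, 1 in each experiment.

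Labelled libraries held 789214 to 1778876 counts in the VT107 experiment and 435343 to 950281 in the intetumumab experiment. Values are counts per 1e6 after TMM scaling within each experiment (CPM). More or less new RNA is thus meant relative to the other T>C reads of a library. A change of all new RNA alike would not show. Libraries were made from 3′ ends, and levels are compared only within a gene. The cells were lysed in bulk, so fewer cells that make an RNA and less new RNA per cell cannot be told apart. Markers of liver cells, integrin subunits and other ligands were not examined, because neither the table nor the gene annotation used here pairs their names with Ensembl IDs. The names of the 7 ligands come with the list itself.

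5 of the 7 genes had enough counts to be fitted in each experiment: SPP1, THBS1, FN1, TNC and FBN1. Without thiouridine, SPP1, TNC and FBN1 had 0 of 10702 counts in the VT107 experiment and 0 of 4553 in the intetumumab experiment, where a count of 0 allows up to 3. THBS1 had 8 and 2 unlabelled counts, which was 0.465% and 0.174% of its mean labelled count. FN1 had 20 and 20, or 0.980% and 1.27%. Over all genes the unlabelled library held 0.949% and 0.628% of the mean labelled total. These are raw counts, not scaled for the reads sequenced. THBS1 lay below the share of all genes in each experiment, and FN1 lay near it in the VT107 experiment and above it in the other.

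VTN, the plasma adhesion protein that gave the vitronectin receptor its name, was not detected in the VT107 experiment. It had 0 counts in 6 labelled libraries, which allows up to 0.443 per 1e6 over their 6766775 counts. In the intetumumab experiment it had 1 count in 9 libraries, in isotype replicate 1. EDIL3, a secreted ligand known from endothelial cells, likewise had 0 counts in the 6 libraries of the VT107 experiment. It had 2 counts in the other experiment, both in replicate 3 of intetumumab at 1.5 µg/ml. No change can be read for either gene at this depth.

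The sequences before the start sites of 3 genes are shown here, to set them beside the DNA motif of the inhibited factors: SPP1 and THBS1, whose VT107 values led to the choice, and TNC, which had the smallest unadjusted p of the 5 with intetumumab at 5 µg/ml. All 7 genes were matched by symbol to RefSeq promoters on build GRCh38.p14, which gave 8 start sites, EDIL3 having 2. The 250 bases upstream of each were searched on both strands for the TEAD core motif GGAATG and for the AP-1 motif TGANTCA. Capitals mark a TEAD match, and the windows run 5′ to 3′ on the strand of the gene.
SPP1, chr4:87975464-87975713, plus strand: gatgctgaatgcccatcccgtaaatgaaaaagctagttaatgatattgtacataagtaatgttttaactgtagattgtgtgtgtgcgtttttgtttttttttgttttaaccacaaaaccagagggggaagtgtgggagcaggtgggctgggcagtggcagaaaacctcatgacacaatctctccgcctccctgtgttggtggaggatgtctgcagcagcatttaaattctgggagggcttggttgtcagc
THBS1, chr15:39580829-39581078, plus strand: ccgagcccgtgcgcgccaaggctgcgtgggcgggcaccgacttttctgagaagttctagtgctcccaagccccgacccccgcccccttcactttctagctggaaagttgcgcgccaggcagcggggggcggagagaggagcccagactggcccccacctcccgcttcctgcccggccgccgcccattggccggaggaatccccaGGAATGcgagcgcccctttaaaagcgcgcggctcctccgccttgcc
TNC, chr9:115118158-115118407, minus strand: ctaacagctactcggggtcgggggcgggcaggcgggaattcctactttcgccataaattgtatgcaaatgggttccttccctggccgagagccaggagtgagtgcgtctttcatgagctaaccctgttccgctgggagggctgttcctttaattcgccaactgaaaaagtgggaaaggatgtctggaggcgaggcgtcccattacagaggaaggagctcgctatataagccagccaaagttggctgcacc

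The windows of EDIL3 share most of their bases, so the 8 windows are not all separate sequences. GGAATG was found once in each of 3 of the 8 windows. In THBS1 it begins 46 bases before the start, in VTN 104 bases before it, and in FBN1 58 bases before a start that lies inside the annotated span of the gene. The windows of SPP1, FN1, TNC and EDIL3 held no match. TGANTCA was in none of the 8 windows. Of 35116 RefSeq windows of the same length, 11.9% held GGAATG and 6.6% held TGANTCA. These are matches of letters and not binding sites, and a window without the letters says nothing of sites elsewhere.

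SPP1, whose product binds alpha-v integrins and the receptor CD44, was the only one of the 5 fitted genes with more new RNA under VT107. The gene lies on chromosome 4 from 87975714 to 87983411. Its level was 60.1 and 34.8 CPM in the DMSO libraries (56 and 36 counts), 292 and 254 CPM at 0.1 µM (248 and 202 counts) and 162 and 209 CPM at 2.15 µM (300 and 271 counts). Every treated library lay above both DMSO libraries, and the lowest treated value was well above the higher DMSO value. The mean level went from 47.4 ± 17.9 CPM in DMSO to 273 ± 27.1 at 0.1 µM and 186 ± 33.0 at 2.15 µM (SD, n = 2 each). The fitted differences were 5.77-fold (log2 fold change 2.53, SE 0.33) and 3.92-fold (log2 fold change 1.97, SE 0.33). Among the log2 fold changes of all 10083 genes fitted, these stood at percentiles 98.7 and 97.6. The level at 2.15 µM was the lower of the 2 treated means. Relative to their mean, the DMSO libraries differed from each other more than the treated pairs did, and the fold change rests on their low counts.

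THBS1, a large matricellular glycoprotein that also binds CD47 and CD36 and activates latent TGF-beta, had less new RNA at each dose. The gene lies on chromosome 15 from 39581079 to 39599466. Its level was 2314 and 2423 CPM in DMSO, 1406 and 1438 CPM at 0.1 µM, and 1092 and 1009.5 CPM at 2.15 µM. The 3 groups did not overlap, and each was narrow against the distances between them. The means were 2368 ± 77.2, 1422 ± 22.6 and 1051 ± 58.3 CPM (SD, n = 2 each), or 1.67-fold lower at 0.1 µM (log2 fold change -0.74, SE 0.14) and 2.25-fold lower at 2.15 µM (log2 fold change -1.17, SE 0.14). As a share of all T>C reads, THBS1 took 0.221% in DMSO, 0.143% at 0.1 µM and 0.109% at 2.15 µM.

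**Figure D1:**
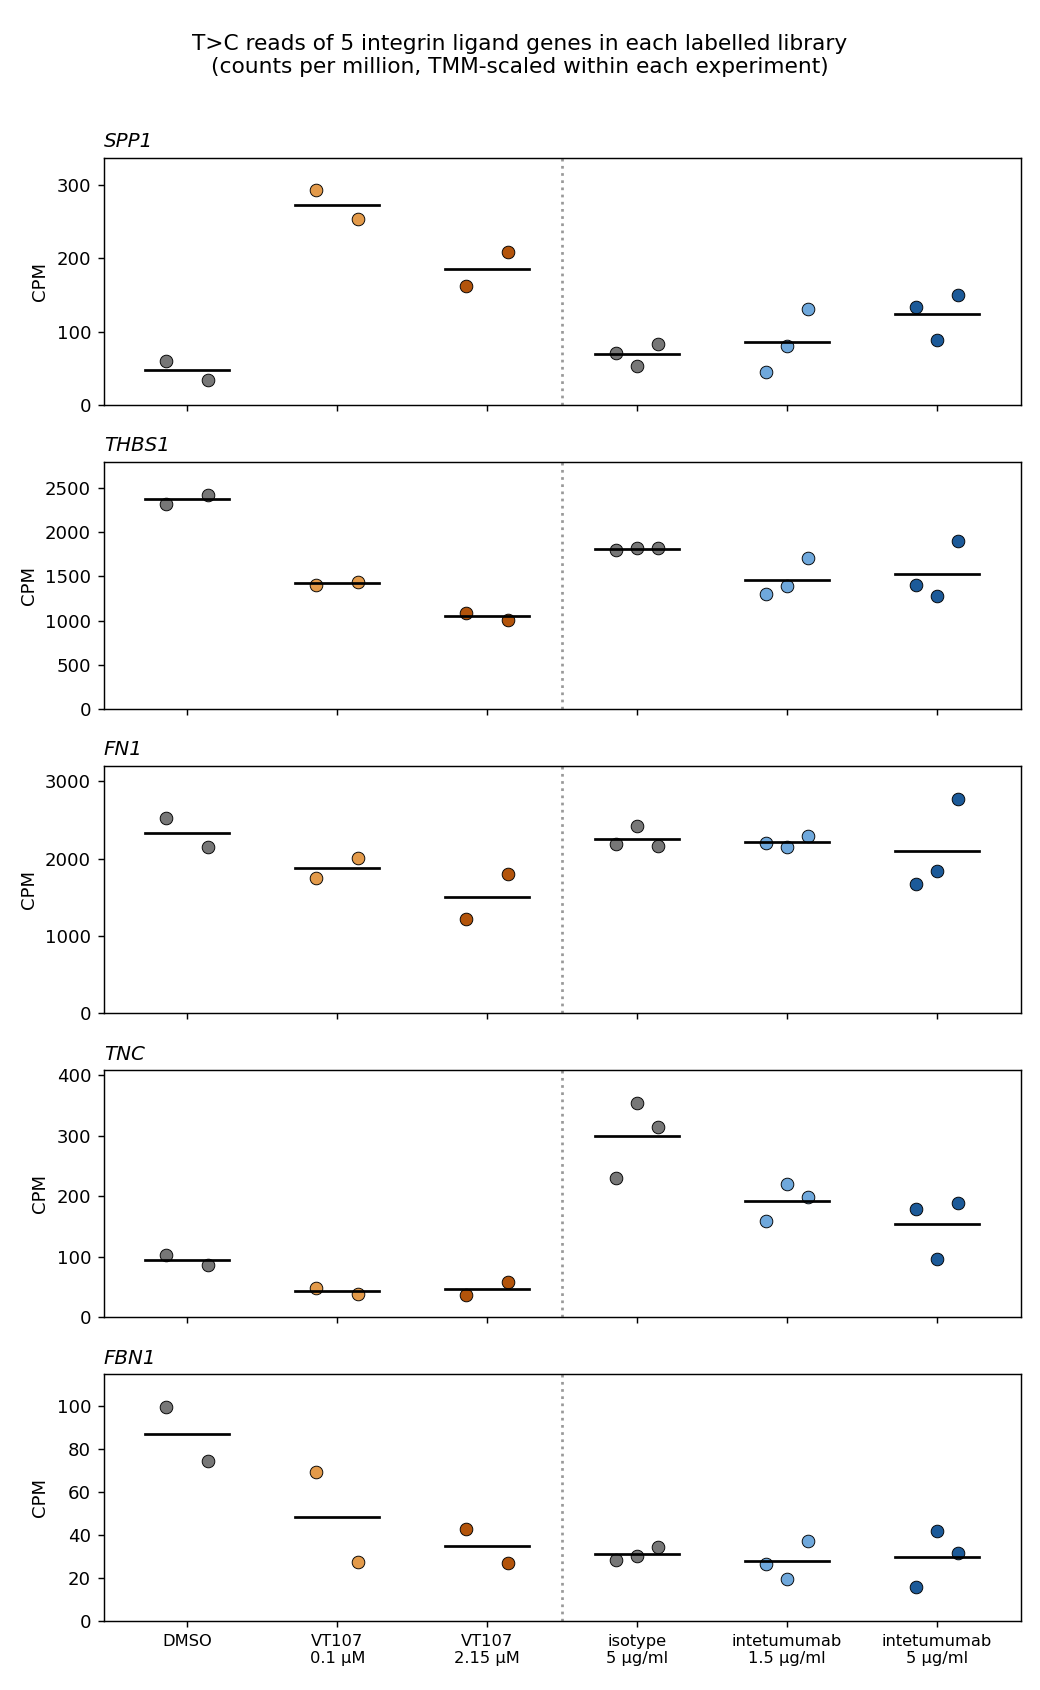
Level of new RNA (counts per 1e6, TMM-scaled within each experiment, linear axis from 0) of SPP1, THBS1, FN1, TNC and FBN1 in the 15 labelled libraries. Points are libraries and bars are group means, with the VT107 experiment left of the dotted line and the intetumumab experiment right of it. SPP1 stands at 47.4 CPM in DMSO and 273 and 186 under VT107, while THBS1 steps down from 2368 to 1422 and 1051.

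FN1, the main adhesive protein of fibrillar matrix and a ligand of several integrins, was lower by less. The gene lies on chromosome 2 from 215360865 to 215436068. It stood at 2527 and 2148 CPM in DMSO, 1754 and 2009.9 at 0.1 µM and 1215 and 1803 at 2.15 µM. In CPM, all treated libraries were below both DMSO libraries, although the nearest values at 0.1 µM were close. As a share of all T>C reads without TMM scaling they crossed, with 0.203% in replicate 2 at 0.1 µM and 0.202% in DMSO replicate 2. The log2 fold changes were -0.31 (SE 0.21) and -0.63 (SE 0.21). At 0.1 µM the value was -0.19 without DMSO replicate 1, and at 2.15 µM it was -0.37 without replicate 1 of that dose and -0.94 without replicate 2. The libraries at 2.15 µM were far apart, at 1509 ± 416 CPM (SD, n = 2).

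TNC, a tenascin of remodelling tissue and tumour stroma, lies on chromosome 9 from 115019575 to 115118157. It stood at 103 and 86.0 CPM in DMSO, 48.3 and 38.9 at 0.1 µM and 36.8 and 57.8 at 2.15 µM, from 31 to 96 counts. The doses overlapped each other and lay below DMSO. The log2 fold changes were -1.11 (SE 0.38) and -1.0 (SE 0.36), so that the mean of each dose was about 2.16- and 2.0-fold lower.

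FBN1, the main protein of elastic microfibrils, lies on chromosome 15 from 48408313 to 48645709. Its DMSO values were 99.8 and 74.4 CPM. They were 69.5 and 27.6 at 0.1 µM and 42.7 and 27.0 at 2.15 µM, from 22 to 93 counts. The higher library at 0.1 µM came close to the DMSO range. The log2 fold changes were -0.84 (SE 0.49) and -1.31 (SE 0.48). At 0.1 µM, this value was -0.33 without replicate 2 of that dose and -1.66 without replicate 1, so it depended on which library was kept.

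In CPM, the treated libraries of each of the 5 fitted genes lay wholly above (SPP1) or wholly below (the other 4) DMSO at each dose. Of all 10083 genes, 20.4% lay wholly above and 19.3% wholly below DMSO at 0.1 µM, and 24.1% and 20.6% at 2.15 µM. At 0.1 and 2.15 µM, FN1 stood at percentiles 30.1 and 14.4 of all log2 fold changes. TNC stood at 5.80 and 5.98, and FBN1 at 10.6 and 2.93. Nothing is read from the count of 5 in a contrast that served to pick the genes. The comparisons of the doses with DMSO share the same 2 DMSO libraries, so a DMSO library that was off would move both alike.

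The doses of VT107 were compared directly. The choice of genes did not name this contrast, but the same treated libraries were already seen for SPP1 and THBS1, so it is not independent of the choice. With edgeR's quasi-likelihood test, 0 of the 5 genes passed an adjusted p of 0.05, as did 0% of all 10083 genes, and 1 had an unadjusted p under 0.05, against 5.3% of all genes. DESeq2 also called 0 of the 5 (0.0694% of all genes). The gene with the low unadjusted p was THBS1, at 1051 CPM with 2.15 µM and 1422 CPM with 0.1 µM (1.35-fold lower, log2 fold change -0.44, SE 0.14, edgeR adjusted p = 0.905). Its 95% interval ran from -0.76 to -0.11 on the log2 scale before any adjustment for the number of genes. SPP1 was 1.47-fold lower at the higher dose (log2 fold change -0.56, SE 0.30, edgeR adjusted p = 0.952), with an interval from -1.25 to 0.13. For FN1, TNC and FBN1 the values were -0.32, 0.11 and -0.47 (edgeR adjusted p = 0.967, 0.992 and 0.987). SPP1 and THBS1 lay wholly lower at the higher dose, as did 19% of all genes. TNC turned to -0.24 without replicate 2 of the 2.15 µM group, and FBN1 to 0.36 without replicate 1 of the 0.1 µM group.

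**Figure D2:**
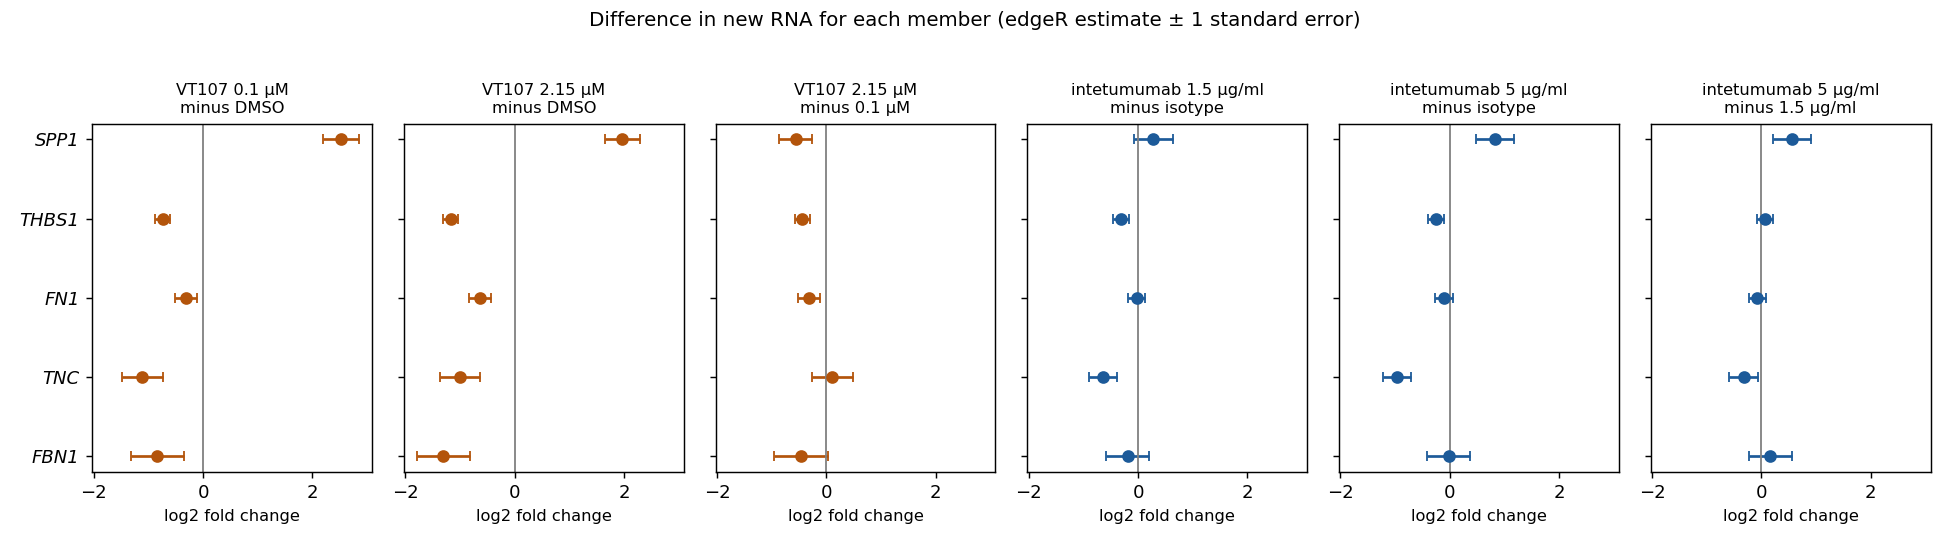
Log2 fold change of new RNA (horizontal axis) for each of the 5 fitted genes in 6 comparisons, as the edgeR estimate with a bar of 1 standard error to each side. Under VT107, SPP1 lies at 2.53 and 1.97 and the other 4 genes lie below 0, while under intetumumab the values farthest from 0 are those of TNC (-0.64 and -0.96) and, at 5 µg/ml, SPP1 (0.83).

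Intetumumab acts on the receptor side of the same contacts, and the comparison with its isotype asks whether new RNA of the ligands differs when alpha-v integrins are bound by antibody. At 5 µg/ml, edgeR called 0 of the 5 genes at an adjusted p under 0.05, against 0.0887% of the 9024 genes tested. At an unadjusted p under 0.05 there were 2, TNC and SPP1, against 9.23% of all genes. DESeq2 called 1, TNC, of the 4 genes to which it gave an adjusted p, against 3.45% of the 2901 genes with one. The isotype was given only at 5 µg/ml, so the comparison at 1.5 µg/ml also differs in the amount of antibody. At 1.5 µg/ml edgeR called 0 of the 5 and 0% of all genes, and 1, TNC, had an unadjusted p under 0.05, against 5.47% of all genes. DESeq2 called 0 of the 3 with an adjusted p, against 1.47% of 2376 genes.

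TNC had the lowest values relative to the isotype at each dose of antibody. Its isotype libraries stood at 231, 355 and 315 CPM (169, 257 and 292 counts). With the lower dose its values were 160.1, 220.1 and 198 CPM. With the higher dose they were 179.7, 96.0 and 189.5 CPM. The lowest isotype library lay above every antibody library, by little at 1.5 µg/ml. The means were 300.4 ± 63.3, 193 ± 30.4 and 155 ± 51.4 CPM (SD, n = 3 each). The differences did not pass after adjustment with edgeR, at 1.56-fold lower for 1.5 µg/ml (log2 fold change -0.64, SE 0.26, adjusted p = 0.899) and 1.95-fold lower for 5 µg/ml (log2 fold change -0.96, SE 0.26, adjusted p = 0.279). The 95% interval at 5 µg/ml ran from -1.53 to -0.39. DESeq2 gave it an adjusted p of 0.0241, and over all alternatives at 5 µg/ml the adjusted p lay between 0.0241 and 0.585. TNC stood at percentile 3.58 of all log2 fold changes at 5 µg/ml. Of the 9024 genes, 8.26% lay wholly below the isotype with 5 µg/ml and 6.72% with 1.5 µg/ml.

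SPP1 stood at 71.1, 53.9 and 83.1 CPM with the isotype, 45.7, 81.1 and 132 CPM with the lower dose and 134, 89.3 and 149.8 CPM with the higher. The isotype libraries lay inside the range of the lower dose and below all 3 libraries of the higher dose, a position shared by 7.64% of all genes. The means were 69.4 ± 14.7, 86.1 ± 43.1 and 124 ± 31.4 CPM (SD, n = 3 each). With edgeR the log2 fold change was 0.28 at 1.5 µg/ml (SE 0.36, adjusted p = 0.985) and 0.83 at 5 µg/ml (SE 0.35, adjusted p = 0.50), or 1.21- and 1.78-fold. The 95% interval at 5 µg/ml ran from 0.07 to 1.59 before adjustment. At 1.5 µg/ml the value was -0.13 without replicate 3, the library with 132 CPM and with 481424 counts in all.

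THBS1 had nearly equal isotype values of 1798, 1823 and 1818 CPM. With antibody they were 1298, 1389 and 1703 for the lower dose and 1403, 1274 and 1904 for the higher. All 3 libraries of the lower dose lay below the isotype, while at the higher dose replicate 3 was above it. The log2 fold changes were -0.31 (SE 0.15, edgeR adjusted p = 0.906) and -0.25 (SE 0.15, edgeR adjusted p = 0.653). At the higher dose the value was -0.44 without replicate 3 of that dose and -0.13 without replicate 2. The intervals ran from -0.64 to 0.02 and from -0.57 to 0.08, so a 2-fold difference in either direction lies outside them.

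FN1 stood at 2187, 2421 and 2158 CPM with the isotype, 2206, 2155 and 2290.0 with the lower dose and 1675, 1842 and 2778 with the higher. The groups overlapped at each dose, and the libraries of the higher dose were spread most. Its log2 fold changes were -0.02 (SE 0.16, edgeR adjusted p = 0.998) and -0.10 (SE 0.16, edgeR adjusted p = 0.891), with intervals from -0.37 to 0.32 and from -0.44 to 0.24. The sign at 1.5 µg/ml turned under total count scaling.

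FBN1 had the fewest counts of the 5, 7 to 32 per library. It stood at 28.7, 30.4 and 34.5 CPM with the isotype, 26.9, 19.7 and 37.6 with the lower dose and 16.1, 41.9 and 32.0 with the higher. Its groups overlapped at each dose. Its log2 fold changes were -0.19 (SE 0.39, edgeR adjusted p = 0.995) and -0.02 (SE 0.39, edgeR adjusted p = 0.994). The interval at 5 µg/ml ran from -0.86 to 0.82, and the sign there turned under total count scaling, so that only changes of about 1.8-fold or more lie outside it.

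Between 5 and 1.5 µg/ml, edgeR called 0 of the 5 genes (0.0111% of all genes), 0 had an unadjusted p under 0.05 (5.64% of all genes), and DESeq2 called 0 (0.0443% of all genes). The groups of all 5 overlapped, while 10.8% of all genes had groups that did not. SPP1 had a value of 0.55 on the log2 scale (SE 0.35, edgeR adjusted p = 0.878), which moved to 0.25 when the first 1.5 µg/ml library was left out and to 0.96 when the third was. TNC was at -0.32 (SE 0.27, edgeR adjusted p = 0.913), and at -0.060 without replicate 2 and -0.52 without replicate 3 of the 5 µg/ml group.

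**Figure D3:**
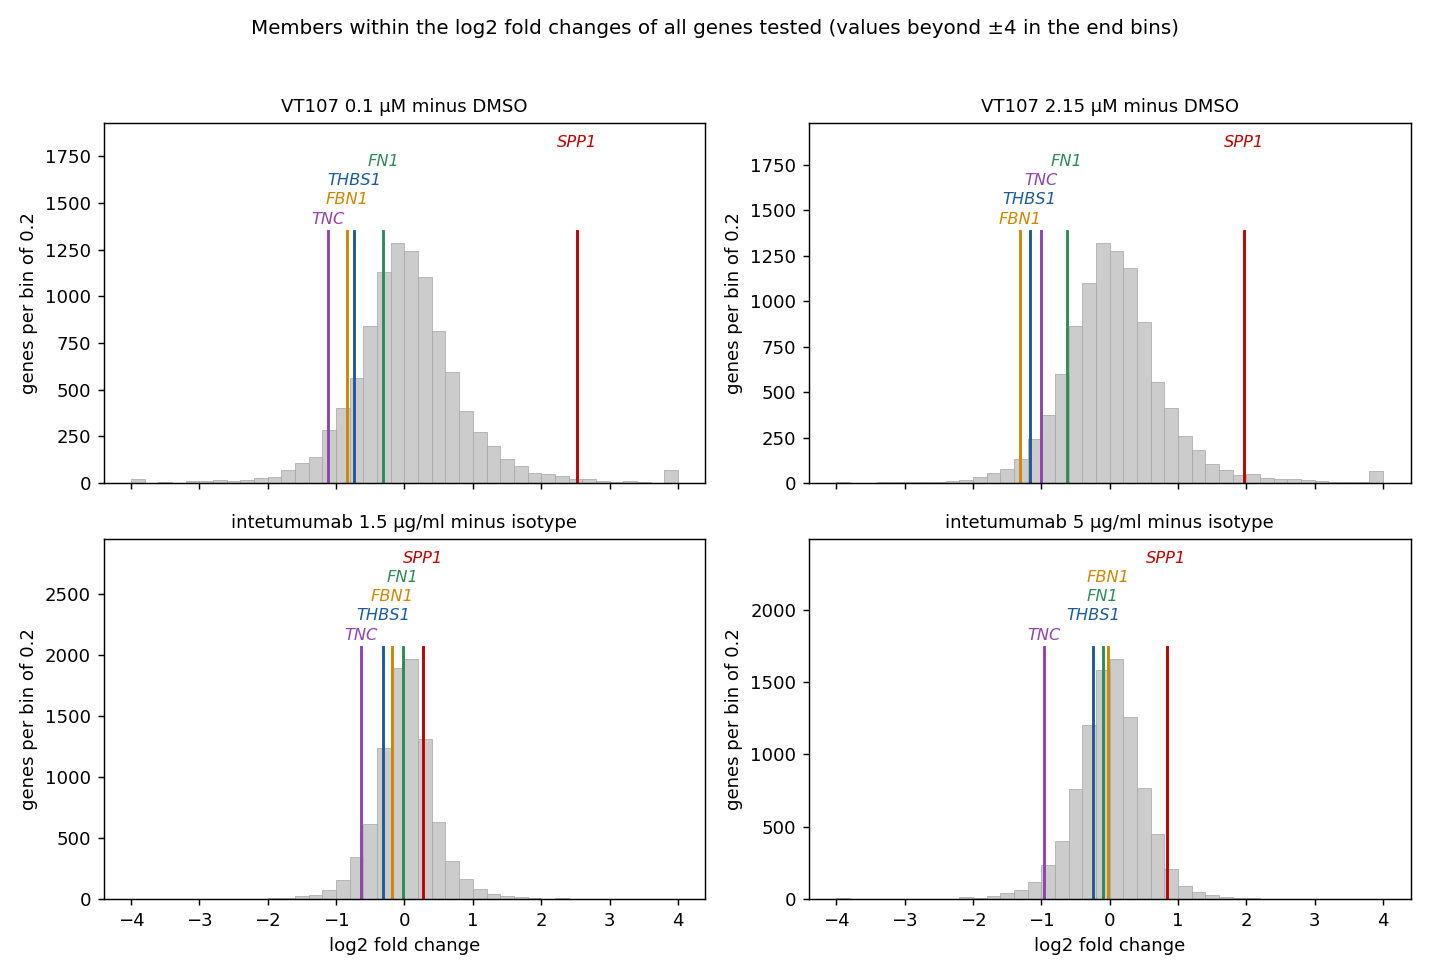
Number of genes (vertical axis) by log2 fold change (horizontal axis, bins of 0.2) for each dose of each agent against its own control, with coloured lines at the 5 fitted genes. SPP1 lies in the right tail under VT107 at 2.53 and 1.97. With intetumumab at 5 µg/ml, TNC at -0.96 and SPP1 at 0.83 lie farthest to the sides of the 5.

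Set side by side, the higher doses of VT107 and of intetumumab gave log2 fold changes of 1.97 and 0.83 for SPP1, -1.17 and -0.25 for THBS1, -0.63 and -0.10 for FN1, -1.0 and -0.96 for TNC and -1.31 and -0.02 for FBN1. The agents share no control library, and the difference between their effects was not tested, since the VT107 contrast served to pick the genes. The control levels differed as well. TNC stood at 94.5 ± 12.0 CPM in DMSO (n = 2) and 300.4 ± 63.3 with the isotype (n = 3), and FBN1 at 87.1 ± 18.0 and 31.2 ± 3.01. FN1 was at 2338 ± 268 and 2255 ± 144. Each control belongs to 1 experiment, so agent, vehicle and experiment cannot be told apart in these levels.

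Likeness to SPP1 and THBS1 was measured on log2 CPM after TMM scaling over all 15 labelled libraries together (prior count 2, 10227 genes). The gene IDs that ran most like SPP1 were ENSG00000143515 (Pearson's r of 0.934) and ENSG00000003436 (r of 0.843). Levels given here are CPM scaled within each experiment. The level of ENSG00000143515 was 6.28 CPM in DMSO and 23.8 and 16.3 at 0.1 and 2.15 µM, against 5.45, 7.53 and 11.3 with the isotype and intetumumab at 1.5 and 5 µg/ml. ENSG00000003436 stood at 76.6 CPM in DMSO, 172 and 135 with VT107, 75.8 with the isotype and 101 and 134 with intetumumab. Most like THBS1 were ENSG00000171223 (r of 0.866) and ENSG00000139926 (r of 0.843). ENSG00000171223 stood at 1827 CPM in DMSO, 715 and 370 with VT107, 758 with the isotype and 527 and 467 with intetumumab. The level of ENSG00000139926 was 1083 CPM in DMSO, 590.0 and 482 with VT107, 662 with the isotype and 514 and 499 with intetumumab. The points share treatment groups and control libraries, and these correlations are a description only. They pool both experiments, whose control levels differ, and how much of r comes from that difference was not tested. The table pairs no names with these IDs.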

How the data were processed

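The deposited values are raw counts per Ensembl gene ID, which the authors made from T>C reads with the SLAM DUNK pipeline, per the labels and the series' design text, with GRCh38 as the build in the submitters' processing notes. Not given in the sources used here are the version of the pipeline, the annotation and the treatment of multi-mapping reads. Each of the 17 columns carries the description of 1 sample as its name.

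Groups came from the sample titles and, for the isotype, the descriptions. Each experiment was fitted on its own: filterByExpr (minimum count 10; 10083 and 9024 genes kept), TMM scaling and the two-sided quasi-likelihood test of edgeR 4.0.16 in R 4.3.3, with Benjamini-Hochberg adjustment over all genes and a threshold of 0.05. The standard error was taken as the absolute log2 fold change over the square root of the F statistic of that test. Intervals are 95%, from this standard error and a t quantile. DESeq2 1.42.0 was an alternative. The fit was tested on simulated data. No label calls the replicates separate cultures. The p-values thus cover the spread between these libraries alone, and it may be technical.

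The 7 genes, the lists and the tests were chosen with earlier results of these data known. The 7 genes are named throughout, with the 2 IDs most like SPP1 and THBS1 each by Pearson's r. The other gene lists and cell type markers fixed for this work were not tested, since 0 RefSeq genes in the table used carry an Ensembl ID. Counts of each of the 5 fitted genes shared no common divisor above 1, and VTN and EDIL3 had too few counts for this check. Limits given for a count of 0 cover counting error only.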

Additional observations from a re-analysis of the deposited data

How the results depend on the processing

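All 10 log2 fold changes of VT107 against DMSO kept their sign in all 140 alternatives. In CPM the treated libraries of each of the 5 fitted genes lay wholly to 1 side of DMSO. Leaving out 1 library could thus hardly turn a sign, and the contrast served to pick the genes. The kept signs are therefore a description and no support. SPP1 lay between 2.18 and 2.97 at 0.1 µM, and between 1.62 and 2.41 at 2.15 µM, when 1 library was left out, the highest each time without DMSO replicate 1. THBS1 lay between -0.77 and -0.71 and between -1.23 and -1.11, and under total count scaling it was -0.63 and -1.02. The count of called genes was 0 in 64 of 65 alternatives of the tested comparisons and 1 with DESeq2 for intetumumab 5 µg/ml against the isotype, where DESeq2 called 3.45% of the genes with an adjusted p; the cause was not tested. With the replicate block it was 0, and SPP1 was 2.54 and 1.99. The sources used here do not say whether replicate numbers pair the libraries. Between libraries of the same number, deviations from group means correlated between -0.0157 and 0.00589 with VT107 and between -0.0302 and 0.0438 with intetumumab. Such low values cannot show that the libraries were unpaired. With 2 libraries per VT107 group, the deviations of replicates 1 and 2 mirror each other and give the same correlations.

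Of 325 alternatives of the 20 tested values, 17 turned the sign. None of the 20 values was called in the main fit, so no called value could turn. Under total count scaling FN1 was 0.0055 at 1.5 µg/ml and FBN1 0.017 at 5 µg/ml. The others left out 1 library. Ranges were -0.24 to 0.41 for TNC and -0.98 to 0.36 for FBN1 between VT107 doses, -0.13 to 0.59 for SPP1, -0.054 to 0.023 for FN1 and -0.43 to 0.023 for FBN1 at 1.5 µg/ml, and -0.36 to 0.035 for FN1 and -0.33 to 0.24 for FBN1 at 5 µg/ml. Between antibody doses they were -0.13 to 0.19 for THBS1, -0.33 to 0.061 for FN1 and -0.14 to 0.43 for FBN1. In the intetumumab experiment FBN1 had 7 to 32 counts per library, the fewest of the 5 fitted genes, and VTN and EDIL3 had too few to be fitted.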
